A study of Mus musculus with 14 samples.

Results

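The genes described here are the 10 AP-1 and EGR immediate early factors Fos, Fosb, Fosl1, Fosl2, Jun, Junb, Jund, Egr1, Egr2 and Egr3, of 50686 genes in the deposited tables. They were chosen by symbol and not by a cut on measured values, although earlier results of these data were known. All 10 passed the filter on low counts, with 14512 genes tested in all. RNA sequencing (an mRNA library kit with single-end reads) was made on 14 libraries of mouse HPC-LSK lines, cultured haematopoietic stem and progenitor cells of C57BL/6N background. The 4 groups were 4 libraries of Cdk6 knockout (KO) lines transformed with the BCR-ABL p210 oncogene, 3 of Cdk6 wild-type (WT) lines with p210, 3 of untransformed KO lines and 4 of untransformed WT lines. The untransformed lines grew on agarose plates in IMDM with 12.5 ng/ml IL-6 and 2% SCF, whereas the p210 lines grew without either cytokine, so transformation and medium changed together and cannot be told apart. The labels do not say whether replicates are separate derivations of a line, so the p-values measure the spread between these libraries, which may be technical. Sample descriptions also carry a numeric code with 2 values, called here the first and the second code, and each group holds libraries of both. What the code stands for is not given.

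AP-1 is a dimer of basic leucine zipper proteins, in which a FOS protein pairs with a JUN protein or JUN proteins pair with each other, and it binds a short palindromic DNA site. EGR proteins are zinc finger factors that bind GC-rich sites and are held back by the NAB corepressors. Both families are switched on within minutes of growth factor or cytokine signalling, largely through the RAS to ERK and JNK kinase cascades, which BCR-ABL also feeds. In blood cells, CDK6 has been described as a chromatin-bound cofactor of AP-1 and as a repressor of Egr1 in leukaemic stem cells, and Egr1 is known for holding mouse stem cells at rest.

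Each library held 20270348 to 50303271 counts assigned to genes, with 18105 to 20689 genes detected. Cdk6, the targeted gene, fell in untransformed KO lines (log2 fold change -2.14 ± 0.34 SE, adjusted p = 0.00573 in edgeR's quasi-likelihood test). In p210 lines it did not pass (-0.86 ± 0.31, adjusted p = 0.147). There, 1 library that carries the label KO p210, replicate 2, had 578 CPM (counts scaled to library size), inside the range of 576 to 606 CPM in WT p210, and without that library Cdk6 passed (-1.28, adjusted p = 0.0143). In log2 CPM that library correlated at r = 0.991 with the mean of the other KO p210 libraries. Its likeness to WT p210 libraries was not computed. Its summed neutrophil and monocyte marker level was 13100 CPM, above the 2220 to 7390 CPM of WT p210. KO p210 replicate 1, at 7150 CPM, lay inside that range, so this sum does not tell the genotypes apart. The label of KO p210 replicate 2 may be wrong, which cannot be told from the files. Results that rest on this library are therefore given with and without it. Of 10 stem and progenitor markers, all exceeded 1 CPM in at least 1 library, and their summed level was 2290 to 2910 CPM in KO p210, 2500 to 3110 CPM in WT p210, 2950 to 3180 CPM in KO untransformed and 2600 to 3520 CPM in WT untransformed libraries. With p210, 1 of these 10 markers passed higher and 3 lower in KO lines (37.2% of all genes passed). In WT lines 1 passed higher and 2 lower (39.5% of all genes passed). Kit averaged 31.4 CPM in KO p210 and 45.5 CPM in WT p210, against 259 CPM in KO untransformed and 431 CPM in WT untransformed lines, whereas Gata2 averaged 510 CPM in KO p210 and 825 CPM in WT p210, against 204 CPM in KO untransformed and 368 CPM in WT untransformed lines. The lymphoid markers Cd3e and Rag1 had no count in any library, and the erythroid sum stayed at or below 53 CPM. WT untransformed replicate 3, which stood apart from its group in earlier results of these data, had a summed neutrophil and monocyte marker level of 317 CPM, against 4160 to 10300 CPM in the other WT untransformed libraries.

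Promoter windows are shown for Fos, Jun and Egr2, 1 gene of each family, to set out some sites close to the start. Each runs from 250 bases before to 50 bases after an annotated start (RefSeq, GRCm38.p6), and sites further upstream were not searched. The windows are chr12:85473640-85473939 on the plus strand for Fos, chr4:95052173-95052472 on the minus strand for Jun and chr10:67537316-67537615 on the plus strand for Egr2. Egr2 had several annotated starts, and its window was picked as the first with a CArG box. The Egr2 window before it, chr10:67535249-67535548, held none. Capitals mark the short CRE site TGACG and the TATAAA box in Fos, the sites TTACCTCA and TGACATCA in Jun, and the CArG box, which serum response factor binds, in Egr2.
Fos: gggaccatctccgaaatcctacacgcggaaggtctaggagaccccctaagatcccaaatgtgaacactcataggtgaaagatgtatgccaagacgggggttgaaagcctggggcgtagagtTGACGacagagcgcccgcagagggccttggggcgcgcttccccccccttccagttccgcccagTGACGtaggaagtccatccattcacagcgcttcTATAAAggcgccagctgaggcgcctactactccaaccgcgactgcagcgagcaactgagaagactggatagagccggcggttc
Jun: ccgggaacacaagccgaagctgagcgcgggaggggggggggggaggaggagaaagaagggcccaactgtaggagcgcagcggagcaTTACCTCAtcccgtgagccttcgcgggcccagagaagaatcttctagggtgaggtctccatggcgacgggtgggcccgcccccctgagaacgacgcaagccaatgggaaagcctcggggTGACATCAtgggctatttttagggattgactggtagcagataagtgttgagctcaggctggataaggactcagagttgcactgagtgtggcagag
Egr2: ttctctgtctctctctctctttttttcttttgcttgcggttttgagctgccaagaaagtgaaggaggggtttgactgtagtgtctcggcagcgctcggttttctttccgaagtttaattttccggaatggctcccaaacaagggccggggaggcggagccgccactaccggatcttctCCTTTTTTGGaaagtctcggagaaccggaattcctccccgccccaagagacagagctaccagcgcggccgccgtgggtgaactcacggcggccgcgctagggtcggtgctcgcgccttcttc
In Fos, TGACG began 129 and 66 bases before the start, and TATAAA 33 bases before it. TTACCTCA began 164 and TGACATCA 45 bases before the start of Jun, and the CArG box began 72 bases before that of Egr2. Windows were found for 7 of the 10 members, and 9 motifs were searched on both strands. Of all 32851 windows, 1.63% held a CArG box, 1.79% the full CRE TGACGTCA (which contains TGACG), 7.81% the AP-1 site TGANTCA, 5.55% the EGR site GCGNGGGCG and 8.3% the STAT site TTCNNNGAA. The short site TGACG stood in 20.8% of all windows, the box TATAAA in 13.6%, TGACATCA in 3.62% and TTACCTCA in 0.889%, and these 4 motifs were added with the windows of these genes in mind. Within these windows an EGR site was found for Fosb and Fosl2, a CArG box for Egr2 alone of the 7, and TGACGTCA, TGANTCA and TTCNNNGAA for none of them. A gene without a match may hold the site outside its window. A match is a run of letters and not a measured binding site.

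The families were expressed at unequal levels, compared here as TPM, which are scaled to gene length and library size. Averaged over all 14 libraries, Jund, the JUN gene known for steady expression, stood at 232 TPM, and Junb, an induced early gene, at 186 TPM. Egr1 followed at 80.4 TPM and Jun at 69.1 TPM. Egr3 (27.3 TPM), Fos (25.9 TPM), Fosl2 (22.4 TPM) and Fosl1 (17.4 TPM) formed a lower tier, below which came Egr2 (9.34 TPM) and Fosb (2.59 TPM). The ranges of neighbours in this order overlapped throughout, for example 141 to 338 TPM for Jund and 102 to 251 TPM for Junb. The spread over libraries was unequal too: the highest CPM was 28.9 times the lowest for Egr3 and 22.4 times for Egr2, and only 2.06 times for Jund and 2.64 times for Junb.

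**Figure D1:**
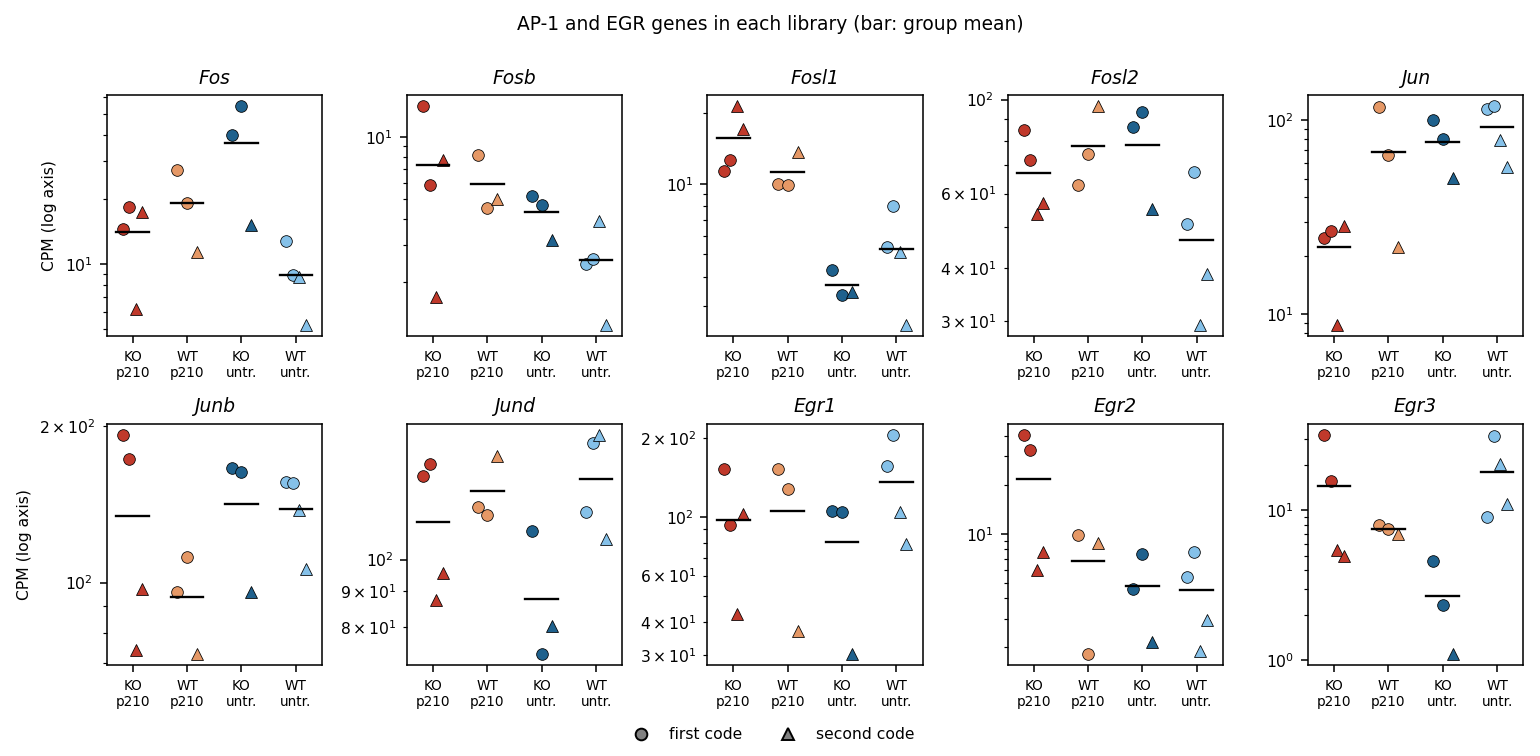
CPM on a log axis (vertical) for each of the 10 genes in every library, by group (KO p210, WT p210, KO untransformed, WT untransformed); circles are libraries of the first code, triangles of the second code, and bars are group means. Egr3 in KO untransformed libraries (1.1 to 4.59 CPM) lies below every WT untransformed library (9.07 to 31.5 CPM), and Fosl1 in p210 libraries lies at 9.88 CPM or above.

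The 10 genes did not move as a block in any comparison. In untransformed lines Cdk6 loss went with higher Fos and lower Egr3, and the other 8 members did not pass in edgeR; 2 of 10 members passed (15.2% of all genes tested did, 8.73% higher and 6.5% lower). DESeq2 also called Fosl2 (0.74, adjusted p = 0.0472) and Jund (-0.59, adjusted p = 0.0253) there. Between KO p210 and WT p210 lines none of the 10 passed (4.44% of all genes did, 0.882% higher and 3.56% lower), and 1 was at an unadjusted p under 0.05 (19.9% of all genes). DESeq2 gave 1 call, Jun, and limma-voom 0. Between WT p210 and WT untransformed lines 1 of 10 passed, Fosl1, higher (39.5% of all genes passed, 21.9% higher and 17.6% lower). Between KO p210 and KO untransformed lines 4 of 10 passed, Fosl1 and Egr3 higher and Fos and Jun lower (37.2% of all genes passed, 19.2% higher and 18% lower). Without the library labelled KO p210 replicate 2 the same 4 members passed there, Fosl1 at 2.18 (adjusted p = 0.00177), Egr3 at 2.40 (adjusted p = 0.0384), Jun at -1.90 (adjusted p = 0.0305) and Fos at -1.51 (adjusted p = 0.0496), and none passed between KO p210 and WT p210 lines. The share of members passing was thus near the background or below it in each comparison. The median log2 fold change of the 10 genes was -0.12, 0.09, 0.27 and 0.32 in these 4 comparisons, beside -0.02, 0, 0.02 and -0.01 over all genes tested.

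None of the 10 passed the test of whether the genotype difference itself changed with p210 (0.0345% of all genes did), and 3 were at an unadjusted p under 0.05 (14.1% of all genes). In DESeq2 Fos and Egr3 passed there, and in limma-voom 0. Fos had the fitted interaction of -2.49 ± 0.67 (adjusted p = 0.2) and Egr3 that of 3.71 ± 1.01 (adjusted p = 0.2) in edgeR. The 2 genotype comparisons share no libraries, whereas the p210 comparisons share their untransformed or p210 groups with them. The libraries of KO and WT untransformed lines did not overlap for 2 of the 10 members, 1 higher and 1 lower (39.7% of all genes, 20.8% higher and 18.9% lower). Those of KO and WT p210 lines overlapped for all 10 (13.3% of all genes did not overlap, 5.64% higher and 7.7% lower). Those of WT p210 and WT untransformed lines did not overlap for 3 members, 2 higher and 1 lower (45% of all genes, 23.5% higher and 21.6% lower). Those of KO p210 and KO untransformed lines did not overlap for 3, 2 higher and 1 lower (46.1% of all genes, 22.6% higher and 23.5% lower).

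**Figure D2:**
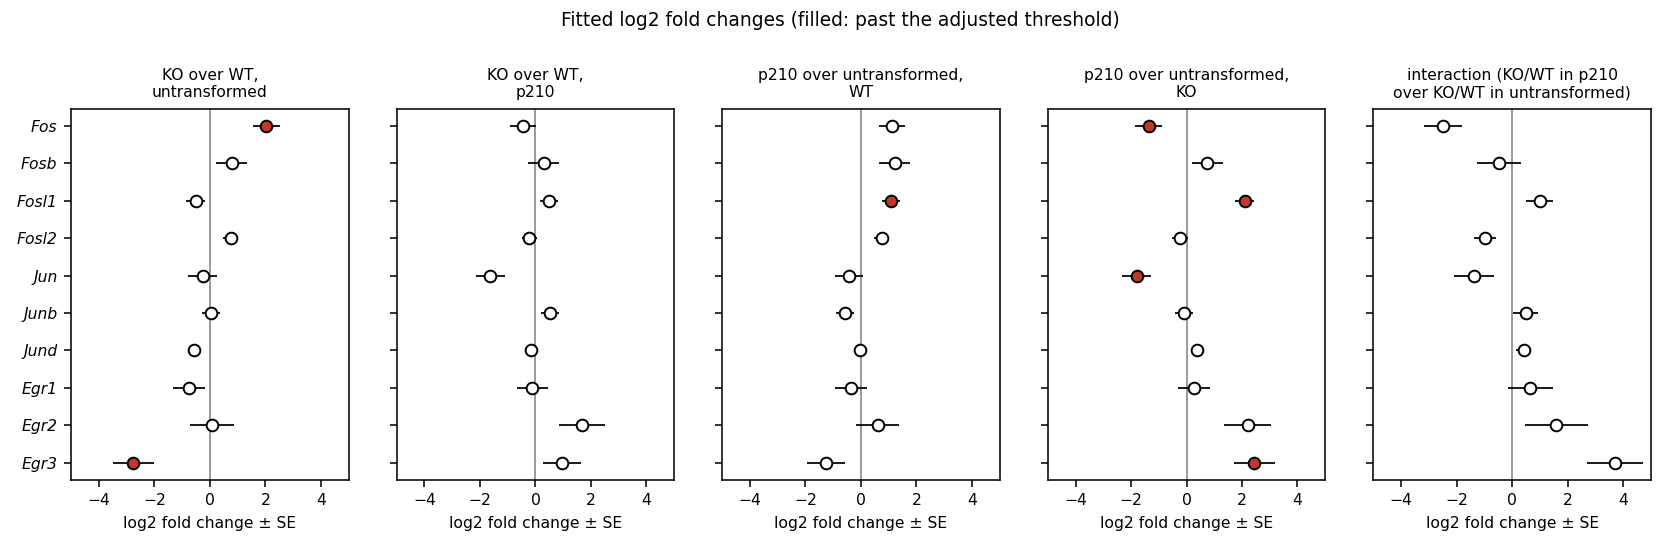
Fitted log2 fold change with its standard error (horizontal) for each gene in the 5 comparisons, KO over WT in untransformed and in p210 lines, p210 over untransformed in WT and in KO lines, and the interaction; filled points passed the threshold of 0.05 on the adjusted p. Fos and Egr3 lie on opposite sides of 0 in untransformed lines (2.04 and -2.76) and in their interactions (-2.49 and 3.71).

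Fos, the founding FOS gene and the classic early response gene, was higher with Cdk6 loss in untransformed lines and gave no call between p210 lines. It stood at 40, 54.1 and 15.1 CPM in KO untransformed replicates 1, 2 and 3, against 12.8, 8.84, 8.73 and 5.17 CPM in WT untransformed replicates 1 to 4. Every KO library lay above every WT library, and the lowest KO library was close to the highest WT one. Fos rose 4.1-fold (log2 2.04 ± 0.48, adjusted p = 0.0191 in edgeR). Within the first code the values were 40 and 54.1 CPM in KO, against 8.84 and 12.8 CPM in WT (adjusted p = 0.0382), and within the second code 15.1 CPM in KO, against 5.17 and 8.73 CPM in WT (1.09, adjusted p = 0.524). The call was lost without WT untransformed replicate 4 (adjusted p = 0.0582), or without replicate 1 (adjusted p = 0.065) or 2 (adjusted p = 0.109) of the KO untransformed lines. The sum of the 12 neutrophil and monocyte markers was 22900 to 32000 CPM in KO untransformed and 317 to 10300 CPM in WT untransformed libraries. Of the 12, 2 passed, both higher (15.2% of all genes passed, 8.73% higher), and none was at 0. The part of these markers in the Fos difference was not tested. In bulk RNA fewer cells of a type and less RNA per cell cannot be told apart.

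In p210 lines Fos stood at 14.5, 18.3, 6.17 and 17.5 CPM in KO replicates 1 to 4, against 27.4, 19.2 and 11.3 CPM in WT replicates 1 to 3, and the groups overlapped (-0.45 ± 0.48, adjusted p = 0.662). Fos fell in KO p210 against KO untransformed lines in the fit (-1.36 ± 0.48, adjusted p = 0.0412), although their ranges overlapped, since KO untransformed replicate 3 was below KO p210 replicate 4 and below the doubted library labelled replicate 2. The neutrophil and monocyte marker sum was 7150 to 21900 CPM in KO p210 and 22900 to 32000 CPM in KO untransformed libraries. Of these 12 markers 4 passed, all lower (37.2% of all genes passed, 18% lower). Single markers went both ways in their group means. Ctsg, Itgam, Fcgr3, S100a8 and S100a9 were higher in KO p210 lines without passing, and the rest, Mpo among them, were lower. The part of these markers in this Fos difference was not tested. This Fos call was lost in limma-voom (adjusted p = 0.081). It was also lost without KO untransformed replicate 1 (adjusted p = 0.107) or 2 (adjusted p = 0.186), KO p210 replicate 1 (adjusted p = 0.0722), 3 (adjusted p = 0.0844) or 4 (adjusted p = 0.051), WT untransformed replicate 2 (adjusted p = 0.054) or 3 (adjusted p = 0.0503), or WT p210 replicate 2 (adjusted p = 0.0518). Within the first code the Fos difference was -1.52 (adjusted p = 0.0135) and within the second code -0.35 (adjusted p = 0.804). Between WT p210 and WT untransformed lines Fos did not pass (1.12 ± 0.48, adjusted p = 0.0802), and the group ranges overlapped; it passed within the first code (1.10, adjusted p = 0.0358) and in DESeq2.

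Fosl1, which encodes FRA1, a FOS protein without the strong activation domain of FOS itself, was the member that passed with p210 in both genotypes. It stood at 11.3, 12.6, 21.4 and 17.2 CPM in KO p210 replicates 1 to 4, against 4.27, 3.33 and 3.44 CPM in KO untransformed replicates 1 to 3. In WT lines it stood at 10, 9.88 and 13.7 CPM with p210, against 5.39, 8.01, 5.11 and 2.48 CPM without. The p210 libraries lay above the untransformed ones in both genotypes, with a far wider gap in KO lines. Fosl1 rose 4.26-fold in KO (2.09 ± 0.36, adjusted p = 0.000972) and 2.13-fold in WT lines (1.09 ± 0.33, adjusted p = 0.0203). The difference between these effects did not pass (interaction 1.00 ± 0.48, adjusted p = 0.368).

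In WT lines, where replicate numbers were taken to pair the libraries, the Fosl1 call was lost with the replicate number as a block (1.02, adjusted p = 0.0513). It was also lost without WT p210 replicate 3 (0.91, adjusted p = 0.0814), within the first code (0.56, adjusted p = 0.139) and within the second code (1.82, adjusted p = 0.0939). In KO lines the Fosl1 difference was 1.65 within the first code (adjusted p = 0.0075) and 2.49 within the second (adjusted p = 0.111). Mast cell and basophil markers were at a summed 6940 to 10200 CPM in KO p210 and 3920 to 13100 CPM in WT p210, against 2570 to 2860 CPM in KO untransformed and 1200 to 4210 CPM in WT untransformed libraries. Of 6 such markers 2 passed higher in each genotype and 1 lower in KO. Of all genes 19.2% passed higher in KO and 21.9% in WT lines. The part of these markers was not tested. Cdk6 genotype gave no call for Fosl1, at -0.51 ± 0.34 (adjusted p = 0.316) in untransformed and 0.48 ± 0.33 (adjusted p = 0.462) in p210 lines.

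Fosb and Fosl2, the FRA2 gene, passed in none of the 4 comparisons in edgeR. Fosb was at 1.69 to 14 CPM in KO p210 and 4.54 to 8.19 CPM in WT p210, against 3.16 to 5.18 CPM in KO untransformed and 1.23 to 3.9 CPM in WT untransformed libraries. In WT lines every p210 library exceeded every untransformed library for Fosb, without passing (1.22 ± 0.56, adjusted p = 0.101; 0.0328 without KO p210 replicate 3). Fosl2 was at 53.7 to 84.9 CPM in KO p210 and 62.8 to 96.4 CPM in WT p210, against 55.3 to 93.4 CPM in KO untransformed and 29.3 to 67.3 CPM in WT untransformed libraries. WT untransformed lines thus had the lowest mean of Fosl2, 46.5 CPM, against 67 to 78.3 CPM in the other groups. The fitted differences were 0.75 ± 0.28 for KO over WT in untransformed lines (adjusted p = 0.0881) and 0.74 ± 0.28 for p210 over untransformed in WT lines (adjusted p = 0.0534). DESeq2 called Fosl2 in both (0.74, adjusted p = 0.0472, and 0.72, adjusted p = 0.0313), and limma-voom in the second (0.77, adjusted p = 0.0497). Without WT untransformed replicate 2 both passed (Fosl2 at 0.95, adjusted p = 0.0436, and 0.96, adjusted p = 0.0167), and without KO untransformed replicate 3 the p210 difference did (adjusted p = 0.0486).

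Among the FOS genes the make-up of the summed TPM differed by group. Fos made up 25.4 ± 9.11% of it in KO p210 (SD, n = 4) and 34.3 ± 12.9% in WT p210 (n = 3), and 55.7 ± 10.8% in KO untransformed (n = 3) and 31.4 ± 6.71% in WT untransformed libraries (n = 4). Fosl1 made up 40 ± 14.3% in KO p210 and 27.7 ± 5.62% in WT p210, and 9.26 ± 4.14% in KO untransformed and 24.8 ± 5.39% in WT untransformed libraries. The 2 KO groups were thus at the ends of both ranges, Fos having the largest share in KO untransformed and Fosl1 in KO p210 libraries. The summed FOS level was 66.3 to 72.3 TPM in KO p210 and 71.1 to 89.7 TPM in WT p210, against 49.1 to 113 TPM in KO untransformed and 29.1 to 58.9 TPM in WT untransformed libraries. No test was made of these shares.

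**Figure D3:**
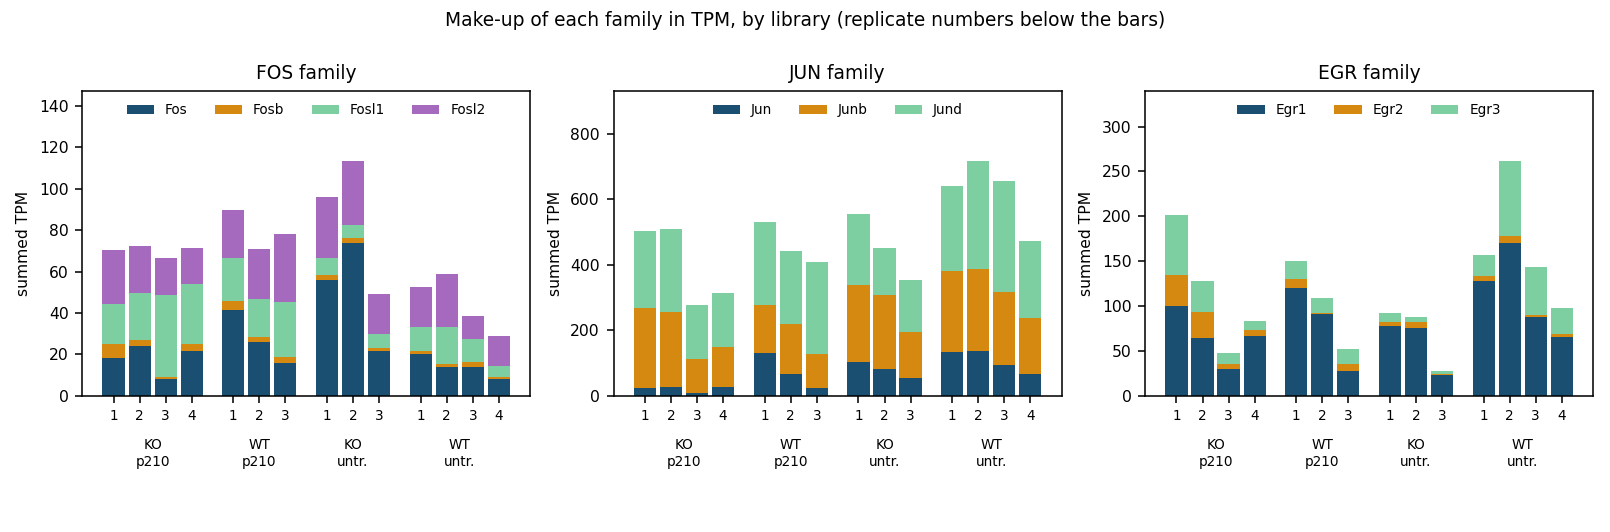
Stacked TPM of the FOS, JUN and EGR genes in every library, with replicate numbers under the bars and groups from left to right KO p210, WT p210, KO untransformed and WT untransformed. Fos is the largest FOS segment in KO untransformed libraries (43.8 to 65% of the sum), and Jun is a thin segment in KO p210 libraries (3.14 to 8.25%).

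Jun, the c-JUN gene and the main activating partner of FOS, was low in KO p210 lines. It stood at 24.8, 26.8, 8.76 and 28.6 CPM in KO p210 replicates 1 to 4, against 100, 80.1 and 50.6 CPM in KO untransformed replicates 1 to 3. Every KO p210 library lay below every KO untransformed library, and replicate 3 was the lowest. Jun fell 1.79 ± 0.52 on the log2 scale in this comparison (adjusted p = 0.0177). The call was lost without KO untransformed replicate 1 (-1.55, adjusted p = 0.0692). Within the first code the Jun difference was -1.81 (adjusted p = 0.00803), and within the second code, with 2 libraries against 1, it was -1.44 (adjusted p = 0.312). Marker sums differed in this comparison too. The neutrophil and monocyte sum was lower in KO p210 libraries, with single markers going both ways, as given above for Fos. The erythroid sum was 0.349 to 3.08 CPM in KO p210 and 6.45 to 11.3 CPM in KO untransformed libraries. Of 5 erythroid markers tested 3 passed, all lower (18% of all genes passed lower). Of 6 megakaryocyte markers 3 passed lower, although their sum was 1230 to 1830 CPM in KO p210 and 982 to 1610 CPM in KO untransformed libraries. Their part in the Jun and Egr3 differences was not tested.

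WT p210 replicates 1, 2 and 3 had 117, 66 and 22.1 CPM of Jun, against 115, 118, 78.9 and 57.2 CPM in WT untransformed replicates 1 to 4. One WT p210 library thus reached the top of the WT untransformed range and another lay below it, and Jun did not pass (-0.43 ± 0.52, adjusted p = 0.539). Set against each other, KO p210 and WT p210 lines overlapped only through WT p210 replicate 3 (22.1 CPM), and Jun did not pass in edgeR (-1.63 ± 0.52, adjusted p = 0.0999). It passed in DESeq2 (adjusted p = 0.017), without WT p210 replicate 3 (-2.05, adjusted p = 0.0255) and within the first code (-1.83, adjusted p = 0.0277), where KO p210 had 24.8 and 26.8 CPM against 66 and 117 CPM in WT p210. The value of 26.8 CPM is that of the library labelled KO p210 replicate 2; without it, over both codes, the Jun difference was -1.73 (adjusted p = 0.163). Within the second code KO p210 had 8.76 and 28.6 CPM of Jun against 22.1 CPM in WT p210. In untransformed lines Jun ranged over 50.6 to 100 CPM in KO and 57.2 to 118 CPM in WT (-0.26 ± 0.52, adjusted p = 0.765). Jun overlaps the antisense gene Junos, and the counting was per strand.

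Junb and Jund, JUN genes that bind DNA like c-JUN and are known as weaker activators that can oppose it, held the larger part of the family in every library. Junb was at 74.2 to 192 CPM in KO p210 and 72.9 to 112 CPM in WT p210, against 95.9 to 166 CPM in KO untransformed and 106 to 156 CPM in WT untransformed libraries. It passed in no comparison by group alone, though it passed lower in WT p210 than in WT untransformed lines with the replicate number as a block (-0.71, adjusted p = 0.0203), with the code as a term (-0.70, adjusted p = 0.00783) and within the first code (-0.59, adjusted p = 0.00914). Within the first code alone Junb was higher in KO p210, at 173 and 192 CPM, than in WT p210, at 96.1 and 112 CPM (0.81, adjusted p = 0.0148). One of these KO libraries is the one labelled KO p210 replicate 2, and without it, over both codes, the Junb difference was 0.37 (adjusted p = 0.624). Jund was at 87.6 to 137 CPM in KO p210 and 116 to 141 CPM in WT p210, against 73.1 to 110 CPM in KO untransformed and 107 to 151 CPM in WT untransformed libraries. Its largest fitted difference was that of KO against WT in untransformed lines (-0.57 ± 0.20, adjusted p = 0.0695), where KO replicate 1 (110 CPM) alone entered the WT range; DESeq2 called it (-0.59, adjusted p = 0.0253), as did edgeR with library size scaling (-0.67, adjusted p = 0.0387). Jun made up 5.25 ± 2.16% of the summed JUN TPM in KO p210 (SD, n = 4) and 15 ± 9.39% in WT p210 (n = 3), against 17.2 ± 1.91% in KO untransformed (n = 3) and 17 ± 3.5% in WT untransformed libraries (n = 4).

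Egr3, an EGR factor that in mouse is needed for muscle spindles and takes part in lymphocyte activation, had the largest fitted difference of the 10 members between untransformed genotypes. It stood at 4.59, 2.35 and 1.1 CPM in KO untransformed replicates 1 to 3, against 9.07, 31.5, 20.3 and 11 CPM in WT untransformed replicates 1 to 4. The groups did not overlap, and each was spread widely. Egr3 fell 2.76 ± 0.74 on the log2 scale (adjusted p = 0.0303), to a fitted 0.148 of the WT level. Within the first code the difference was -2.56 (adjusted p = 0.0893) and within the second code -3.86 (adjusted p = 0.236), with no overlap in either. The Egr3 call was lost without KO untransformed replicate 1 (adjusted p = 0.0531), 2 (adjusted p = 0.129) or 3 (adjusted p = 0.0825) and without WT untransformed replicate 2 (adjusted p = 0.0603) or 3 (adjusted p = 0.0573). Megakaryocyte markers moved the same way, with sums of 982 to 1610 CPM in KO untransformed and 2300 to 5970 CPM in WT untransformed libraries. Of these 6 markers 4 passed, all lower (15.2% of all genes passed, 6.5% lower), and none were at 0. Their part in the Egr3 difference was not tested.

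With p210 Egr3 gave no call between the genotypes. It stood at 31.8, 15.8, 5.41 and 4.95 CPM in KO p210 replicates 1 to 4, against 7.94, 7.49 and 7.01 CPM in WT p210 replicates 1 to 3. The KO p210 libraries of the first code lay above the WT p210 range and those of the second code below it, and Egr3 did not pass (0.95 ± 0.68, adjusted p = 0.486). KO p210 libraries all exceeded KO untransformed ones, and Egr3 rose 5.45-fold there (2.45 ± 0.73, adjusted p = 0.0215). WT p210 libraries all lay below WT untransformed ones, without passing (-1.26 ± 0.69, adjusted p = 0.166). The rise in KO lines was 2.77 within the first code (adjusted p = 0.0324) and 2.23 within the second (adjusted p = 0.111). It lost its call without KO untransformed replicate 2 (adjusted p = 0.0728) or 3 (adjusted p = 0.0828) and without KO p210 replicate 1 (1.71, adjusted p = 0.0565). In TPM, Egr3 made up 24.2 ± 8.74% of the EGR sum in KO p210 (SD, n = 4) and 20 ± 9.93% in WT p210 (n = 3), against 9.03 ± 2.76% in KO untransformed (n = 3) and 28.4 ± 9.53% in WT untransformed libraries (n = 4).

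Egr2, known as Krox20 and for its roles in hindbrain patterning, myelination and monocyte fate, was high in single KO p210 libraries. It stood at 40.6, 32.9, 5.97 and 7.72 CPM in KO p210 replicates 1 to 4, against 4.59, 7.53 and 2.16 CPM in KO untransformed replicates 1 to 3. WT p210 replicates 1 to 3 had 9.86, 1.81 and 8.78 CPM, against 5.39, 7.7, 1.89 and 2.96 CPM in WT untransformed replicates 1 to 4. Only the first-code KO p210 libraries left the range of the others. Egr2 did not pass between KO p210 and KO untransformed lines (2.20 ± 0.84, adjusted p = 0.0568) nor between KO p210 and WT p210 lines (1.68 ± 0.82, adjusted p = 0.281). The KO p210 against KO untransformed difference passed in DESeq2 (2.18, adjusted p = 0.0109), with the replicate number as a block (adjusted p = 0.0493), with the code as a term (adjusted p = 0.0249), within the first code (2.60, adjusted p = 0.0475) and without WT p210 replicate 2 (adjusted p = 0.0432), KO p210 replicate 3 (adjusted p = 0.0343) or KO p210 replicate 4 (adjusted p = 0.0394). One of the 2 high KO p210 libraries is the one labelled replicate 2, and without it the difference was 1.93 (adjusted p = 0.114).

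Egr1, the most abundant EGR gene, passed in no comparison. It stood at 106, 105 and 30.2 CPM in KO untransformed replicates 1 to 3, against 156, 205, 105 and 79.3 CPM in WT untransformed replicates 1 to 4. With p210 it stood at 152, 93.5, 43 and 103 CPM in KO replicates 1 to 4, against 153, 128 and 36.9 CPM in WT replicates 1 to 3. In every group the lowest Egr1 library was of the second code. The fitted KO over WT differences of Egr1 were -0.76 ± 0.58 (adjusted p = 0.39) without p210 and -0.11 ± 0.57 (adjusted p = 0.94) with it, with the standard error exceeding or nearing the difference itself in both.

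Members other than Fosl1 were positively correlated with each other within groups, from weakly to strongly. After the group means were taken out of log2 CPM over the 14 libraries, Jun and Egr1 correlated at r = 0.90, Fos and Egr1 at 0.87, Fos and Jun at 0.86, Junb and Egr1 at 0.81 and Jund and Egr3 at 0.81. Fosl2 and Jun (0.18), Jun and Jund (0.24) and Fos and Jund (0.24) were the lowest pairs, and Fosl1 stayed between -0.19 and 0.22 with every other member. These are descriptions over libraries that share codes, run histories and medium. With group kept as a term, libraries of the first code held more Egr1 (1.24 ± 0.25, unadjusted p = 0.000501, adjusted p = 0.144) and Junb (0.69 ± 0.12, unadjusted p = 0.000144, adjusted p = 0.0909) in edgeR, without passing. For Junb every first-code library exceeded every second-code library in 4 of 4 groups, and for Egr1, Fos and Jun in 3 of 4. None of the 10 members passed in this comparison, which was chosen after seeing the data, and 7 were at an unadjusted p under 0.05 (0.0758% of all genes passed, 0.0413% higher and 0.0345% lower in the first code, and 11.9% were at an unadjusted p under 0.05). Fosl1 did not follow the code (-0.04 ± 0.25). The summed level of 34 other immediate early genes was 2480 to 2830 CPM in first-code and 2070 to 2580 CPM in second-code libraries. That of 14 heat shock and handling genes was 4570 to 6080 CPM over all libraries. Most of this sum was Hsp90ab1, at group means of 3720 to 4160 CPM, so it says little of the other heat shock and handling genes. Of 13 such genes tested on that list, 1 was lower in untransformed KO than WT lines, 7.69% beside 15.2% of all genes. That gene was Dnajb1 (-0.28 ± 0.07, lost with no filter, adjusted p = 0.0938), and the count was 0 to 3 as single libraries were left out. None of the 13 genes passed between KO p210 and WT p210 lines in edgeR (3 at an unadjusted p under 0.05, beside 19.9% of all genes, 2 called by DESeq2 and 0 by limma-voom). Their part in the members' differences was not tested.

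**Figure D4:**
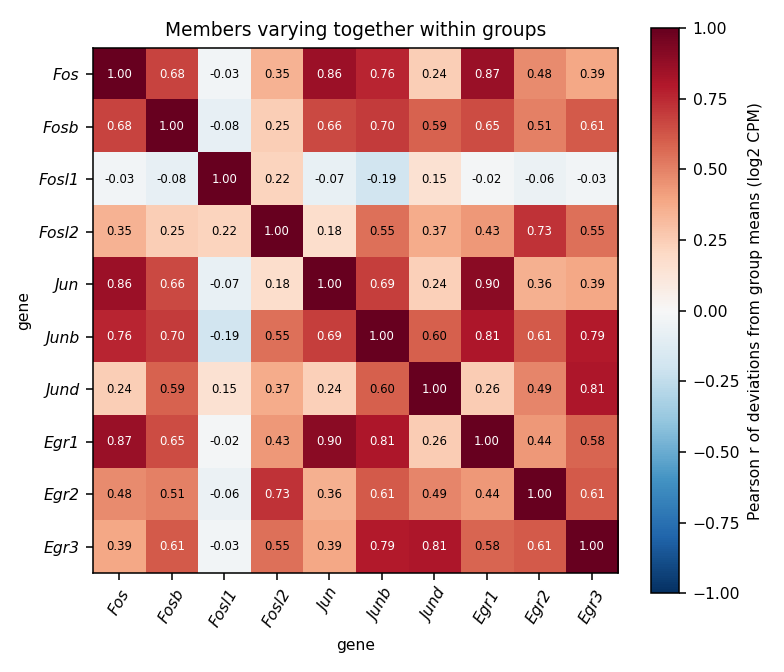
Pearson correlation between each pair of members over the 14 libraries after group means were subtracted from log2 CPM; red is positive, blue negative. Fos, Jun, Junb and Egr1 form a block of positive values (0.69 to 0.90), and the Fosl1 row is near 0.

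Beyond the members, the genes tracking Fos most closely over the 14 libraries were Pea15a (r = 0.876, and 0.758 within groups), Fam50a (0.872 and 0.844), Uap1l1 (0.866 and 0.769) and Litaf (0.865 and 0.84). Those nearest to Jun were Pter (0.921, and 0.943 within groups), Bex3 (0.915 and 0.784), Tom1l1 (0.914 and 0.782) and Lck (0.914 and 0.78). Nearest to Egr1 were the circadian gene Per1 (0.807, and 0.835 within groups), Itpa-ps1 (0.761 and 0.832), the hexokinase gene Hk2 (0.742 and 0.75) and Ankrd37 (0.716 and 0.72). Itpa-ps1 is a pseudogene at a mean of 0.327 CPM, and its reads are uncertain. None of these correlations carries a test, and groups, code and depth are shared by all the genes.

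The signalling genes upstream of these factors and their partners were read from lists, each beside the share of all genes tested that passed. Between KO p210 and WT p210 lines that share was 4.44%. Of 22 upstream kinase and ternary complex factor genes on the list, 27.3% passed between untransformed KO and WT lines, beside 15.2% of all genes. In KO 5 were higher and 1 lower (median 0.09, beside -0.02 over all genes). They included the JNK kinase gene Map2k4 (0.59 ± 0.12, adjusted p = 0.0119), the ERK1 gene Mapk3 (0.53 ± 0.12, adjusted p = 0.0144) and the serum response factor coactivator gene Mrtfa (0.54 ± 0.12, adjusted p = 0.0151). This count of 6 on the list was 2 without WT untransformed replicate 4, and 1 or 0 without replicate 1 or 2 of the KO untransformed lines. None of the 22 on this list passed between KO p210 and WT p210 lines in edgeR. There 9 were at an unadjusted p under 0.05, beside 19.9% of all genes, while DESeq2 called 3 and limma-voom 0. With p210, 8 of the list were higher and 4 lower in WT (54.5%, beside 39.5% of all genes, median 0.17). In KO lines 8 were higher and 5 lower (59.1%, beside 37.2%, median 0.20). In WT lines Map2k4 (1.10 ± 0.12) and Mrtfa (1.02 ± 0.12) led, and the JNK kinase gene Map2k7 was higher in WT (0.91 ± 0.12) and in KO lines (0.87 ± 0.12). In KO lines Elk3, a ternary complex factor gene, fell by 1.13 on the log2 scale and the RSK2 gene Rps6ka3 by 0.96.

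Of 18 other basic leucine zipper genes that can pair with or compete with AP-1 proteins, 1 was higher (Atf6, 0.45 ± 0.11) and 1 lower (Atf1, -0.27 ± 0.08) in untransformed KO than WT lines. That was 11.1%, beside 15.2% of all genes. Between KO p210 and WT p210 lines 0 passed in edgeR (5 at an unadjusted p under 0.05, beside 19.9% of all genes, 1 called by DESeq2 and 0 by limma-voom). This list count of 2 was 0 without KO untransformed replicate 1 or 2, or without WT untransformed replicate 3 or 4, 1 without WT untransformed replicate 2, WT p210 replicate 2 or KO p210 replicate 1 or 2, and 4 without WT untransformed replicate 1. Atf1 lost its call with no filter (adjusted p = 0.156) and with the code as a term (adjusted p = 0.0605). With p210, 4 of the 18 were higher and 3 lower in WT (38.9%, beside 39.5% of all genes, median 0.40). In KO lines 5 were higher and 3 lower (44.4%, beside 37.2%, median 0.19). The small MAF gene Mafg rose in both, with 209 CPM in WT p210 against 82.9 CPM in WT untransformed (1.33 ± 0.17, adjusted p = 0.00013) and 300 CPM in KO p210 against 94 CPM in KO untransformed lines (1.67 ± 0.18, adjusted p = 5.77e-05). Maff rose in KO lines (1.01 ± 0.27). Batf2, at 0.0601 CPM in KO p210 against 1.5 CPM in KO untransformed lines, fell by 4.58 on the log2 scale. The KO count of 8 on this list was 5 without KO untransformed replicate 1 or 2 and 2 without replicate 3. The EGR corepressor gene Nab1 fell with p210 in WT (-0.79 ± 0.17, adjusted p = 0.00315) and in KO lines (-0.64 ± 0.16, adjusted p = 0.00949). Its relative Nab2 fell in WT lines (-0.73 ± 0.23, adjusted p = 0.0278), a call lost without WT untransformed replicate 2, 3 or 4, where 1 of the 2 NAB genes passed, and with the replicate block (adjusted p = 0.0726). Egr4 was under the filter.

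Of 34 other immediate early genes 31 were tested. Between untransformed KO and WT lines 12.9% of them passed, beside 15.2% of all genes, and between KO p210 and WT p210 lines 3.23%, beside 4.44%. In untransformed KO against WT lines 2 were higher, the RNA decay factor gene Zfp36 (0.93 ± 0.26) and Btg1 (0.64 ± 0.20), and 2 lower, among them Zfp36l2 (-0.50 ± 0.15), and this list count of 4 was 0 without KO untransformed replicate 1 or 2 or WT untransformed replicate 4, 1 without WT untransformed replicate 2 or 3 or KO p210 replicate 2, and 2 without WT untransformed replicate 1, WT p210 replicate 1 or 2 or KO p210 replicate 1. Btg1 lost its call with DESeq2 size factors (adjusted p = 0.0528), library size scaling (adjusted p = 0.0687), upper quartile scaling (adjusted p = 0.0601), no filter (adjusted p = 0.053) and in limma-voom (adjusted p = 0.0725). With no filter Zfp36 (adjusted p = 0.0672) and Zfp36l2 (adjusted p = 0.0865) lost theirs. Between KO p210 and WT p210 lines 1 passed, the NF-kB inhibitor gene Nfkbia, higher at 137 CPM in KO p210 against 42.8 CPM in WT p210 (1.68 ± 0.37, adjusted p = 0.0261), a list count of 0 without WT p210 replicate 1 or 2 and 2 without WT p210 replicate 3. The Nfkbia call was lost with no filter (adjusted p = 0.0523) and in limma-voom (adjusted p = 0.0684). With p210, 6 were higher and 3 lower in WT (29%, beside 39.5% of all genes, median 0.16). In KO lines 8 were higher and 3 lower (35.5%, beside 37.2%, median -0.10). Plk3 rose in both (1.64 ± 0.20 in WT, 2.69 ± 0.23 in KO) and the zinc finger gene Klf10 fell in both (-1.37 ± 0.12 in WT, -1.90 ± 0.11 in KO). The ERK phosphatase gene Dusp5 rose in WT lines (2.30 ± 0.49), and Klf4 fell in KO lines (-3.44 ± 0.76). Myc did not pass in WT lines (211 CPM with p210 against 156 CPM without, adjusted p = 0.397).

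Of 19 genes with AP-1 or EGR sites known from other work, 18 were tested, and Cdk6 itself is among them. Between untransformed KO and WT lines 11.1% of the 18 passed, beside 15.2% of all genes. With p210, 11 were higher and 2 lower in WT lines (72.2%, beside 39.5% of all genes, median 1.38, beside 0.02). In KO lines 4 were higher and 1 lower (27.8%, beside 37.2%, median 0.33, beside -0.01). The 3 with the smallest adjusted p were the same in both genotypes: the cell cycle inhibitor gene Cdkn1a (1.77 ± 0.25 in WT, 1.60 ± 0.26 in KO), the heme oxygenase gene Hmox1 (3.40 ± 0.53 in WT, 3.17 ± 0.57 in KO) and Il6 (3.60 ± 0.68 in WT, 3.57 ± 0.74 in KO). Il6 averaged 67.7 CPM in WT p210 against 5.57 CPM in WT untransformed lines, which were grown with added IL-6. None of the 18 passed the interaction in edgeR (3 at an unadjusted p under 0.05, beside 14.1% of all genes, 0 called by DESeq2 and 0 by limma-voom), with the list's median at -0.19. The WT count of 13 on the list was 7 without WT p210 replicate 1 and 8 without WT untransformed replicate 3 or 4, and the KO count of 5 was 3 without any 1 of KO untransformed replicates 1 to 3 or the library labelled KO p210 replicate 2. In untransformed lines 1 was higher in KO than WT, the osteopontin gene Spp1 (2.27 ± 0.69, adjusted p = 0.0462), and Cdk6 was lower. The Spp1 call was lost with library size scaling (adjusted p = 0.0504) and with no filter (adjusted p = 0.112). Between KO p210 and WT p210 lines 0 of the 18 passed in edgeR (4 at an unadjusted p under 0.05, beside 19.9% of all genes, 3 called by DESeq2 and 0 by limma-voom).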

How the data were processed

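Files of gene counts and TPM per library were deposited by the authors. Per the file headers, featureCounts 1.5.1 counted reads by strand against GENCODE M13, and per the submitters' processing notes Trimmomatic and STAR were run on GRCm38 (versions not given in the sources used here). Deposited TPM matched those recomputed from counts and gene lengths within 0.05. The 14 libraries were fitted in 1 model with edgeR 4.0.16 in R 4.3.3 (TMM scaling, filterByExpr, robust quasi-likelihood F-test), with 1 mean per group, and p-values were adjusted by Benjamini-Hochberg over 14512 genes, with a threshold of 0.05. Standard errors are the log2 fold change divided by the square root of F. CPM use TMM-scaled library sizes. DESeq2 1.42.0 and limma 3.58.1 were alternatives. The fit was also run on simulated counts that held no effect of code, sequencing run or line, so it was not tested against such effects.

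The members and gene lists were chosen with earlier results of these data known. Named are all 10 members and Cdk6; of each list, up to 3 genes with the smallest adjusted p that passed and up to 2 of the most abundant that did not; and the 4 genes most correlated with Fos, Jun and Egr1. Replicate numbers were taken to pair libraries where every pair's deviations from group means correlated above 0.1, as in WT p210 and WT untransformed libraries (0.163, 0.114 and 0.123) and in no other comparison. These correlations are weak. The WT pairs also shared the code and letter of their descriptions, so pairing cannot be told apart from an effect of either. No pair of libraries was a duplicate.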

Additional observations from a re-analysis of the deposited data

Results flagged for a closer look

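The libraries separated in opposite directions with p210 in the 2 genotypes for Egr3, which marks it for a closer look, though only the KO difference passed. KO p210 libraries all lay above KO untransformed ones (log2 fold change 2.45, adjusted p = 0.0215 in edgeR), as for 22.6% of all genes. WT p210 libraries all lay below WT untransformed ones (-1.26, adjusted p = 0.166 in edgeR), as for 21.6% of all genes. The test of the difference between these effects, the interaction, gave 3.71 ± 1.01 and did not pass (adjusted p = 0.2; DESeq2 gave 0.00652). In the 20 sets of 4 libraries of 1 group and 1 member, no end library's gap to its neighbour exceeded 0.829 of the set's range (Dixon's criterion, by which chance marks about 1 in 20).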

How the results depend on the processing

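Each member's difference was recomputed with other scalings, no filter, other tools, the compared groups alone, batch terms, blocks, subsets by code, and without single libraries. No call made here turned its direction in any of these. Fos in untransformed KO lines lost its call in 6 of 27 alternatives and Egr3 there in 10 of 27. With p210, Fosl1 lost it in 8 of 28 (WT) and 1 of 28 (KO), and in KO lines Fos lost it in 15, Egr3 in 6 and Jun in 2 of 28. The cause was not tested. Members with few counts (Fosb at 49 to 267 counts per library, Egr2 and Egr3 down to 54 and 56) and groups of 3 and 4 libraries limit precision, and counting error is only part of it. Over all genes the count of calls ranged from 0 to 3499 and 4 to 1454 for KO against WT without and with p210, 1566 to 6381 and 73 to 6124 for p210 in WT and KO lines, and 0 to 409 for the interaction, lowest within the second code (for the interaction, with the replicate block) and highest in DESeq2. Counts on the other gene lists stayed within 1.5 times in 660 of 822 cases. The 44 called differences of other named genes turned in none of 1221 recomputed values and lost their call in 149.

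The number of members passing between untransformed KO and WT lines was 2 and became 1 with no filter, 4 in DESeq2, 0 with a term for an extra sequencing run named in some descriptions, 1 within the first code, 0 within the second code, 0 without 2 doubted libraries together (replicate 3 of WT untransformed lines and the one labelled KO p210 replicate 2), and 0 to 2 without single libraries. Between KO p210 and WT p210 lines it was 0 and became 1 in DESeq2, 2 within the first code and 0 to 1 without single libraries. For p210 in WT lines it was 1 and became 3 in DESeq2, 2 in limma-voom, 0 with the compared groups alone, 3 with the code as a term, 0 with the extra run as a term, 2 within the first code, 0 without both doubted libraries and 0 to 2 without single libraries. For p210 in KO lines it was 4 and became 2 in limma-voom, 2 with the compared groups alone, 0 within the second code and 2 to 4 without single libraries. For the interaction it was 0 and became 2 in DESeq2, and stayed 0 without single libraries.

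Replicate numbers were taken to pair WT p210 with WT untransformed libraries, on weak correlations. With the replicate block there, 1 member passed as before, Junb (-0.71, adjusted p = 0.0203) in place of Fosl1 (1.02, adjusted p = 0.0513). Blocking by code and letter gave Fosl1 at 0.87 (adjusted p = 0.0657). In the other comparisons libraries of the same number correlated at -0.081 to 0.119. There too replicates 1 and 2 shared code and letter across groups, and replicates 3 shared the code. The block left 2 members passing between untransformed genotypes, 0 between p210 genotypes and 0 in the interaction. It gave 5 for p210 in KO lines, or 3 blocked by code and letter.

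Values that changed sign all belonged to differences with no call. For KO against WT without p210, Junb (0.03) was -0.07 with library size scaling, -0.02 with upper quartile scaling, -0.14 with the block, -0.13 with the code as a term, -0.10 with the extra run as a term, -0.38 within the second code and -0.13 to 0.22 without single libraries. Egr2 (0.08) was -0.03 with library size scaling, -0.10 in limma-voom, -0.15 with the block, -0.11 with the code, -0.24 with the extra run, -0.13 and -0.20 within the first and second code, -0.18 without both doubted libraries and -0.44 to 0.45 without single libraries. For KO against WT with p210, Egr1 (-0.11) was 0.08 with the block, 0.27 with the code, 0.17 with the extra run, 0.98 within the second code and -0.53 to 0.24 without single libraries. Fosb (0.30) was -0.18 in limma-voom, -0.09 within the second code and -0.22 to 0.63 without single libraries. Within the first code Fosl2 was 0.19 and Jund 0.19, and within the second Fos was 0.06, Egr2 -0.37 and Egr3 -0.44. For p210 in WT lines, Egr2 was -0.18 within the first code, Jund 0.11 within the second, 0.02 without both doubted libraries and -0.16 to 0.01 without single ones, and Egr1 -0.74 to 0.03. For p210 in KO lines, Junb (-0.08) was 0.01 with the block, 0.11 blocked by code and letter, 0.15 within the first code and -0.30 to 0.12 without single libraries, and Egr1 -0.11 to 0.54. Within the second code Fosl2 was 0 and Cdk6 -0.21 there, and Cdk6 was -0.06 without both doubted libraries and -0.06 to 0.59 without single ones. In the interaction Fosb was 0.04 blocked by code and letter, and within the second code Jun was 0.21 and Egr2 -0.17.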
